A study of Arabidopsis thaliana with 8 samples.

Results

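The comparison described here set the Arabidopsis thaliana line se-1 p35S::MIR156 against the wild type Col-0, and asked which transcript changes of the se-1 mutant were still present when the mutant also carried a MIR156 transgene, and which were called with the transgene and not in se-1. The 2 arrays of se-1 p35S::MIR156 and the 2 arrays of Col-0 were taken by their genotype labels from the 8 arrays of the study. The other groups were se-1 without the transgene and ago1-27, again with 2 arrays each. The se-1 arrays were used to tell changes that remained from those that did not, and the ago1-27 arrays entered the fit for its estimate of the spread and are not described. All plants were grown for 20 days in short days, and RNA came from the vegetative apex. Both se-1 groups carry the se-1 allele of SERRATE (SE). The transgene puts a miR156 precursor under the viral 35S promoter, which is active in most plant tissues, so its expression is not limited to the cells that normally make miR156. A line with the transgene and wild-type SE was not analysed here, so an effect of the transgene was seen in the mutant background and in no other.

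MicroRNAs of plants are cut from hairpin precursors in the nucleus by DICER-LIKE1, and the zinc-finger protein SE helps that cut to be made accurately. The mature microRNA is loaded into ARGONAUTE1 and pairs with complementary transcripts, which are cleaved or held back from translation. miR156 is abundant in young shoots, where it represses a group of SPL transcription factors and keeps the plant in the juvenile phase, and mutants with little SE lose juvenile leaf traits early. The annotation used here pairs no probe set with any of the 11 genes of the miR156-targeted SPL list, so the direct targets of the transgene's product are not described. It lists no gene for 8730 of 22746 probe sets, and any probe set for an SPL gene among those was not looked for. The level of miR156 was not measured.

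Signals are in the arbitrary units of the deposited values, in which every array has the same trimmed mean. Replicate arrays of the 3 genotypes described correlated across probe sets with r between 0.979 and 0.983 (across probe sets, which are no replicates of each other). Actin controls at the 3' end read higher than those at the 5' end, as a measure of RNA quality, by a ratio of 3.26 and 3.48 in se-1 p35S::MIR156, 2.97 and 4.22 in se-1 and 3.91 and 2.81 in Col-0, so the 3 genotypes overlapped. Of the listed markers of the shoot meristem, the annotation pairs a probe set with CLV3 and UFO alone. Any probe set for the others, among those with no listed gene, was not looked for. Both lay at or near background. UFO was within background on all 6 arrays, and CLV3 on all but 1 array of se-1 p35S::MIR156, where it read 25.7. Leaf photosynthesis genes were measured well above background in all 3 genotypes, with RCA, the activase of Rubisco, at 2056 and 2509 in se-1 p35S::MIR156, 1979 and 1877 in se-1 and 1750.2 and 2008 in Col-0. The labelled apex is therefore described without a defining meristem marker above background in wild type, which is a limit of the markers that could be read. The SE probe set read 130.3 and 161 in se-1 p35S::MIR156, 117 and 117 in se-1 and 128 and 135 in Col-0, a log2 difference of 0.13 between the transgene line and Col-0 (adjusted p = 0.927), -0.15 between se-1 and Col-0 (adjusted p = 0.839) and 0.28 between the 2 se-1 lines (adjusted p = 0.72). The labels do not place the se-1 lesion relative to these probes, so that signal is no check of the genotypes.

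Of 15922 probe sets tested, 134 were called in se-1 p35S::MIR156 against Col-0 (0.842% of those tested), where called means an adjusted p under 0.05 in limma's test. They were 90 higher (0.565%) and 44 lower (0.276%), 107 of them by at least 2-fold, and on all 134 the arrays of the 2 genotypes did not overlap, as on 41.1% of all tested probe sets. An unadjusted p under 0.05 was found for 9.4% of all tested probe sets. All changes and differences are fitted means of log2(signal + 16), with standard errors between 0.149 and 0.416 for the named probe sets in this comparison, and their median over all tested probe sets was -0.02. Against the same Col-0 arrays, se-1 alone had 173 called probe sets (1.09%), 118 higher (0.741%) and 55 lower (0.345%). Of the se-1 changes, 60 were also called, in the same direction, with the transgene, which is 44.8% of the calls of the transgene line and 34.7% of those of se-1. A further 2 were called in both lines in opposite directions, and 111 were called in se-1 and not in the transgene line. The other 72 calls of the transgene line were not called in se-1. Since both comparisons use the same Col-0 arrays, their calls are not independent, and a probe set called in 1 line and not in the other is not thereby shown to differ. That was tested directly, as se-1 p35S::MIR156 against se-1, which called 57 probe sets (0.358%), 35 higher (0.22%) and 22 lower (0.138%). It called 17 of the 111, 14 of the 72, both with opposite directions and 1 of the 60. Of the 134 calls, 60 belonged to probe sets paired with exactly 1 gene. With 2 arrays a genotype these counts moved when an array was left out. Each such count was made anew, so it can hold probe sets that were not among the first. The 134 calls became 26 and 22 without se-1 p35S::MIR156 replicates 1 and 2, 14 without Col-0 replicate 1 and 42 without Col-0 replicate 2, and the 22 were 9 higher and 13 lower. The 173 calls of se-1 became 32 and 83 without Col-0 replicates 1 and 2, and 89 without each se-1 array in turn. The 57 became 19 and 10 without se-1 p35S::MIR156 replicates 1 and 2, and 25 without se-1 replicate 2. The 60 kept changes became 18 without each array of the transgene line in turn, 6 without Col-0 replicate 1 and 21 without Col-0 replicate 2. The 111 became 26 and 62 without Col-0 replicates 1 and 2, and 41 without each se-1 array in turn. With no filter on dim probe sets the transgene line had 28 calls, and without the trend in the spread 75.

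**Figure D1:**
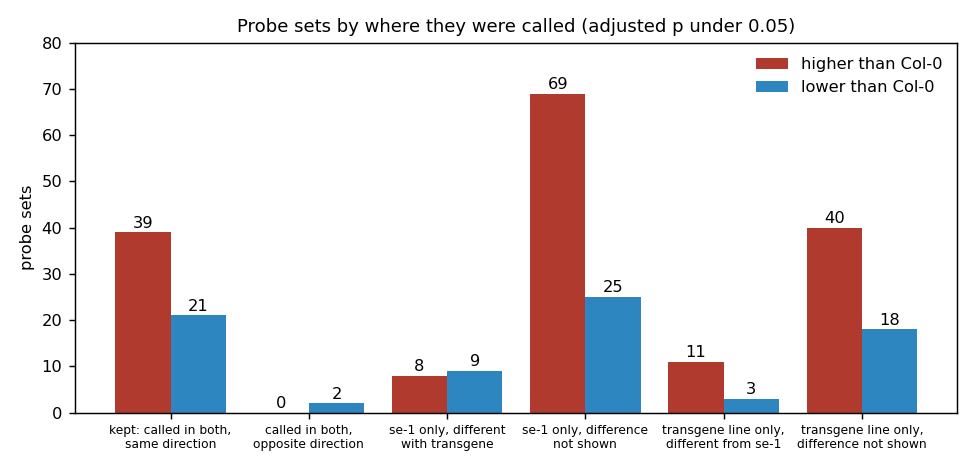
Number of probe sets (vertical axis) in each class of call, split into those higher and those lower than Col-0. The direction is that of se-1 for changes kept or called in se-1 only, and that of se-1 p35S::MIR156 for the rest. The largest class, 69 higher and 25 lower, holds se-1 calls that were not called with the transgene and for which no difference between the 2 se-1 lines was shown.

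The se-1 changes that remained with the transgene were paired with a gene in 29 of 60 probe sets, 18 higher and 11 lower than Col-0, and all 29 are named here. They are ordered by annotated role, an order given for description and made after the values were seen. Of the raised genes, AT1G13880, PSF2 and RBL have nuclear roles. AT1G13880, an ELM2-domain gene, read 514 and 538 in se-1 p35S::MIR156, 549.8 and 658 in se-1 and 163 and 178 in Col-0, a log2 change of 1.54 with the transgene and 1.73 without it (adjusted p = 0.000761 and 0.000354). Every array of both se-1 lines lay above both Col-0 arrays, and the call was made in each of the 15 alternatives, in both lines. PSF2, a subunit of the GINS complex of DNA replication, rose by 0.90 with the transgene and 1.34 without it. RBL, the nucleolar factor REBELOTE, rose by 0.90 and 0.99.

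Several kept rises were in genes of secreted proteins. The neighbouring chitinase-family genes AT2G43610 and AT2G43600 rose by 1.08 and 1.21 with the transgene and by 1.54 and 1.20 without it. AT2G43610 read 231 and 206 in se-1 p35S::MIR156, 256 and 369 in se-1 and 106 and 84.3 in Col-0. THI2.2, a thionin, read 486 and 596 in se-1 p35S::MIR156, 552 and 478 in se-1 and 251 and 209 in Col-0, a rise of 1.18 with the transgene (adjusted p = 0.00666). Thionins are small cysteine-rich antimicrobial peptides, and the 2 se-1 lines overlapped for THI2.2. The lipid transfer protein gene AT3G53980 rose by 1.16 with the transgene, the subtilase gene ATSBT5.2 by 1.18, the serine carboxypeptidase-like gene scpl31 by 1.18 and the pectin methylesterase inhibitor-like gene AT3G47380 by 0.87. In se-1 alone these 4 rose by 1.67, 1.70, 1.50 and 1.01.

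By fitted value the largest kept rise among genes was that of AT5G24240, a gene of the phosphatidylinositol 4-kinase gamma family. It read 65.4 and 66.8 in se-1 p35S::MIR156, 72.8 and 118 in se-1 and 6.79 and 4.38 in Col-0, where both arrays lay within background. The fold is therefore a bound, at least 3.15-fold with the transgene and at least 4.43-fold without it (adjusted p = 0.00806 and 0.0014). AT5G52790, a CBS-domain gene with 1 Col-0 array within background, rose by 1.54 and 1.58. AT4G18280 read 555 and 532 in se-1 p35S::MIR156, 939 and 954 in se-1 and 264 and 280.1 in Col-0. The transgene line lay between the other groups there, and its difference from se-1 was -0.78 (adjusted p = 0.0601), short of the threshold. The other kept rises were those of AT2G32150 (1.80 with the transgene), AT1G26730 (1.33), AT3G48200 (1.07), the dihydroxyacetone kinase gene AT3G17770 (1.01) and AT1G01490 (1.01).

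Of the 11 kept falls, those of GH9B13, AT1G10640 and AT5G62360 are in genes with annotated roles in the cell wall. The pectin methylesterase inhibitor-like gene AT3G47380, named above, went the other way, with a kept rise. How many of all tested probe sets belong to genes of the cell wall or of secreted proteins was not counted. GH9B13, a glycosyl hydrolase of family 9, read 466 and 367 in se-1 p35S::MIR156, 694 and 786 in se-1 and 1488 and 1539 in Col-0, a change of -1.83 with the transgene and -1.02 without it (adjusted p = 0.000457 and 0.0225). The 3 genotypes did not overlap, and the difference between the 2 se-1 lines was -0.81 (95% interval -1.25 to -0.37, adjusted p = 0.157). AT1G10640, a polygalacturonase-like gene, read 112 and 109 in se-1 p35S::MIR156, 171 and 158 in se-1 and 390.4 and 440.3 in Col-0, a change of -1.76 with the transgene (adjusted p = 0.000986). Polygalacturonases cut the pectin backbone. AT5G62360, a pectin methylesterase inhibitor gene, had a change of -1.38 with the transgene and -1.87 without it.

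AT1G19960 had the largest kept fall among genes. It read 76.5 and 143 in se-1 p35S::MIR156, 177 and 111 in se-1 and 464 and 576 in Col-0, a change of -2.13 with the transgene (adjusted p = 0.000638) and -1.76 without it. The 2 se-1 lines overlapped, and every array of both lay under Col-0. AT5G48490, a lipid transfer-type gene related to DIR1, changed by -1.50 with the transgene and -2.04 without it, with 1 se-1 array within background. AT4G13840, the CER26 gene of wax elongation, changed by -0.96 and -0.91. The remaining falls with the transgene were those of AT1G64370 (-1.49), AT1G30515 (-1.47), the cytochrome b561 gene AT1G14730 (-1.25), AT5G38320 (-1.16) and the calmodulin-like gene AT2G41090 (-1.05). Among the 29 kept genes, the calls of AT1G13880, AT1G19960, GH9B13 and AT1G10640 against Col-0 in the transgene line were made without each array in turn. The other 25 ended without at least 1 array, with adjusted p between 0.0505 and 0.482. A kept change also needs the call in se-1, and 18 of those 29 calls ended without at least 1 array, with adjusted p between 0.0535 and 0.296, those of GH9B13 and AT1G10640 among them. AT1G13880 and AT1G19960 were the 2 genes called in both lines without each array in turn. In bulk apices, fewer cells of a type and less RNA per cell cannot be told apart.

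**Figure D2:**
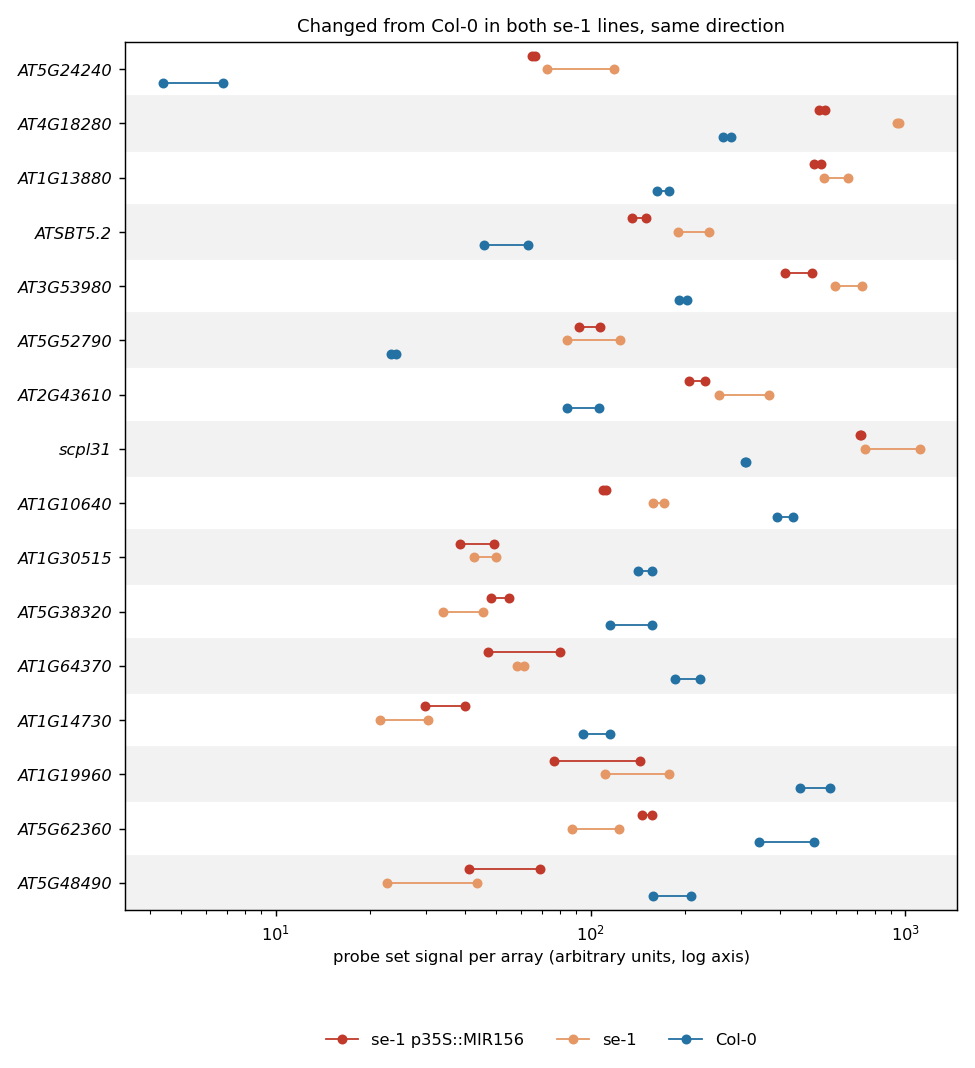
Signal on each array (horizontal axis, log scale, arbitrary units) for the 16 genes with the largest kept changes by the se-1 value, 8 raised and 8 lowered. Points are arrays and lines join the 2 arrays of a genotype. In each gene both arrays of se-1 p35S::MIR156 and both of se-1 lie on the same side of Col-0.

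Of the 60, 1 probe set also differed between the 2 se-1 lines, and it has no listed gene. It was singled out after its values were seen. It read 9.92 and 9.03 in se-1 p35S::MIR156, within background on both arrays, 72.3 and 78.6 in se-1 and 175 and 194 in Col-0. The transgene line was at least 11.4-fold under Col-0 and at least 4.67-fold under se-1 (adjusted p = 1.35e-06 and 0.000491), and se-1 differed from Col-0 by -1.13 (adjusted p = 0.0121). The call against Col-0 in the transgene line was made in each of the 14 alternatives in which the probe set was tested. That of se-1 ended with no filter and without each se-1 and each Col-0 array.

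A smaller set of se-1 changes was not called with the transgene and did differ between the 2 se-1 lines: 17 probe sets, 8 raised in se-1 and 9 lowered, of which 11 have a gene. CYP71B22, a cytochrome P450, read 62.9 and 54.4 in se-1 p35S::MIR156, 304 and 607 in se-1 and 105 and 59.7 in Col-0. The transgene line overlapped Col-0 and differed from se-1 by -2.58 (adjusted p = 0.000491), with a difference from Col-0 of -0.36 (95% interval -0.96 to 0.24). AT5G05250 read 173 and 210.2 in se-1 p35S::MIR156, 399 and 391 in se-1 and 163 and 152 in Col-0, and differed between the se-1 lines by -0.99 (adjusted p = 0.0242). COR15A, a cold-induced gene whose protein protects chloroplast membranes, read 531 and 927 in se-1 p35S::MIR156, 2044 and 1419.8 in se-1 and 662 and 910.3 in Col-0. Its difference between the se-1 lines was -1.26 (adjusted p = 0.0436). That call ended in 9 of the 15 alternatives and its call in se-1 in 7. A pseudocount of 1, no filter, no trend and robust eBayes ended both. COR15B, also on the list of abscisic acid and cold response, was called in neither comparison. It differed by 0.61 in se-1 against Col-0 (adjusted p = 0.487) and -0.78 between the se-1 lines (adjusted p = 0.474).

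Genes lowered in se-1 and higher with the transgene were ECS1, AT2G25510, UF3GT, AT3G19550, AT2G36885, ZW9 and PYK10. ECS1, a gene linked to the response to a bacterial pathogen, read 1371 and 885 in se-1 p35S::MIR156, 255 and 252 in se-1 and 751 and 1309.9 in Col-0, a difference of 2.05 between the se-1 lines (adjusted p = 0.00302). AT2G25510 read 678 and 699 in se-1 p35S::MIR156, 181 and 203 in se-1 and 1017 and 789 in Col-0, a difference of 1.76 (adjusted p = 0.00542). For ECS1 the transgene line overlapped Col-0, and for AT2G25510 it differed from Col-0 by -0.37 (95% interval -0.93 to 0.18, adjusted p = 0.747). ZW9, a TRAF-like gene, read 361 and 305 in se-1 p35S::MIR156, 59.4 and 91.5 in se-1 and 222 and 142 in Col-0. Both arrays of the transgene line were over both of Col-0, by 0.84 (adjusted p = 0.144), and over se-1 by 1.95 (adjusted p = 0.000885). AT3G19550, within background on both se-1 arrays, was at least 3.05-fold higher with the transgene than in se-1, and AT2G36885 differed by 1.20. The difference of AT2G36885 from Col-0 was 0.03, with a 95% interval of -0.40 to 0.46. Of the 11 calls between the se-1 lines, those of CYP71B22 and ZW9 were made without each array in turn, and the other 9 ended without at least 1 array, with adjusted p between 0.0532 and 0.409. Of their 11 calls in se-1 against Col-0, 6 ended without at least 1 array, with adjusted p between 0.0525 and 0.497: those of COR15A, ECS1, AT3G19550, AT2G36885, ZW9 and PYK10. CYP71B22 was the 1 gene with both calls made without each array in turn. Without any 1 array of the 3 genotypes the class was smaller than 17, and some of the 17 probe sets left it each time.

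The chitinase-family genes AT2G43590, AT2G43600, AT2G43610 and AT2G43620 are neighbours in gene order and fell into different classes. All 4 were called higher in se-1 than in Col-0. AT2G43620 read 107 and 89.6 in se-1 p35S::MIR156, 236 and 299 in se-1 and 76.1 and 65.6 in Col-0, a difference of -1.31 between the se-1 lines (adjusted p = 0.012). For AT2G43600 that difference was 0.01 (95% interval -0.48 to 0.50), and for AT2G43610 -0.47 (95% interval -0.94 to 0.01). AT2G43590 read 33.6 and 30.4 in se-1 p35S::MIR156, 76.8 and 60.1 in se-1 and 6.73 and 11.2 in Col-0, within background on both Col-0 arrays. It was at least 3.24-fold over Col-0 in se-1. With the transgene it was at least 1.525-fold over Col-0, without overlap, and its adjusted p was 0.154. Its difference between the se-1 lines was -0.81 (95% interval -1.38 to -0.24, adjusted p = 0.359). The run was described together after its values were seen, and whether the differences between the se-1 lines themselves differ among the 4 genes was not tested. Genes of 1 family can share probe sequence, and the files do not say how far these probe sets do.

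Both probe sets with calls in opposite directions were raised in se-1 and lowered with the transgene, and are described for that reason. AT3G28500, a gene of the acidic ribosomal protein P2 family, read 119.6 and 88.5 in se-1 p35S::MIR156, 418 and 445 in se-1 and 239 and 189.7 in Col-0. The 3 genotypes did not overlap, with the transgene line lowest and se-1 highest. The differences were -0.94 with the transgene against Col-0 (adjusted p = 0.0299), 0.97 in se-1 against Col-0 (adjusted p = 0.0211) and -1.91 between the se-1 lines (adjusted p = 0.000367). The difference between the se-1 lines was called in every alternative, while the call of the transgene line against Col-0 ended without each of its arrays and each Col-0 array. The call of se-1 against Col-0 ended without each se-1 and each Col-0 array, with no filter and without a trend (adjusted p between 0.0652 and 0.198).

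**Figure D3:**
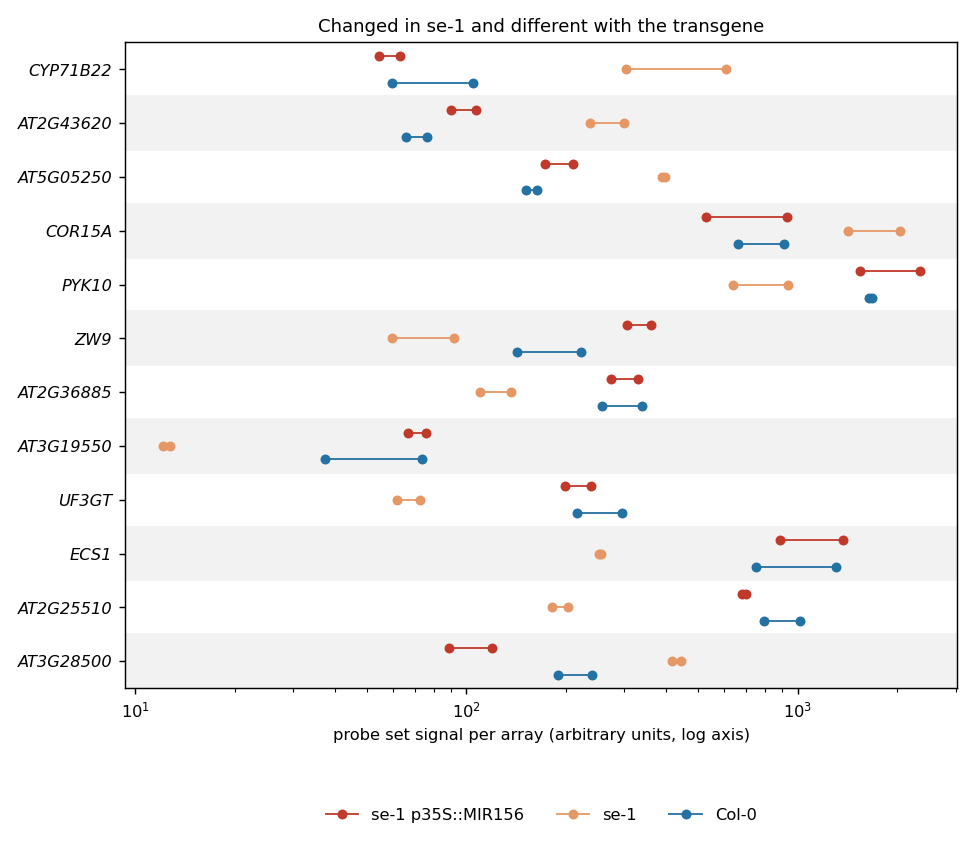
Signal on each array (horizontal axis, log scale, arbitrary units) for the 11 genes called in se-1, not called with the transgene and different between the se-1 lines, and for AT3G28500, called in opposite directions. Points are arrays and lines join the 2 arrays of a genotype. In each gene both arrays of se-1 p35S::MIR156 lie apart from both arrays of se-1.

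For the other 94 se-1 calls that were not called with the transgene, 69 raised and 25 lowered in se-1, no difference between the se-1 lines was shown. In the transgene line 70 of the 94 had an unadjusted p under 0.05 against the Col-0 arrays that the se-1 comparison also used, and the median size of the log2 change was 0.63, against 1.08 in se-1, the comparison that selected them. They can therefore be placed neither among the changes that remained nor among those that did not.

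In 72 probe sets a change was called in the transgene line and not in se-1, and 14 of these also differed between the 2 lines, 11 higher and 3 lower with the transgene. The genes among the 14 were AT3G02910, AT1G43590, AT4G34950, AT5G49120 and THI2.1. AT3G02910, of the gamma-glutamylcyclotransferase-like family, read 661 and 554 in se-1 p35S::MIR156, 141 and 133 in se-1 and 165 and 179.8 in Col-0, a rise of 1.72 over Col-0 and 2.02 over se-1 (adjusted p = 0.00691 and 0.00302). Both arrays of the transgene line stood above every array of se-1 and Col-0. AT4G34950, of the major facilitator family of transporters, read 1408 and 1482 in se-1 p35S::MIR156, 792 and 875 in se-1 and 855 and 854 in Col-0, a rise of 0.75 over Col-0 (adjusted p = 0.0347). AT1G43590, annotated as a pseudogene, read 65.1 and 67.7 in se-1 p35S::MIR156 and was within background on every se-1 and Col-0 array. It was at least 2.85-fold over se-1 and at least 3.17-fold over Col-0 (adjusted p = 0.011 and 0.0467). Its call against Col-0 ended in 8 of the 14 alternatives in which it was tested, among them a pseudocount of 1, no trend and no ago1-27 arrays.

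THI2.1 and AT5G49120 were the genes lowered in this class. THI2.1 is a thionin, of the same family as THI2.2, and is induced by pathogens and by jasmonate. It read 12.4 and 11.3 in se-1 p35S::MIR156, within background on both arrays, 51.0 and 64.3 in se-1 and 51.4 and 59.8 in Col-0. That is at least 3.55-fold under se-1 and at least 3.43-fold under Col-0 (adjusted p = 0.0278 and 0.0193). AT5G49120, a gene of the FLZ zinc-finger family, read 23.8 and 28.2 in se-1 p35S::MIR156, 74.1 and 96.0 in se-1 and 85.5 and 83.1 in Col-0, a difference of -1.26 from se-1 and -1.26 from Col-0 (adjusted p = 0.0162 and 0.00999). The calls of these 5 genes against Col-0 each ended without at least 1 array of the transgene line and of Col-0, with adjusted p between 0.0654 and 0.451. Their calls against se-1 also each ended without at least 1 array, with adjusted p between 0.0502 and 0.49. That of AT4G34950 (0.78, adjusted p = 0.0445) ended in 11 of 15 alternatives, and that of THI2.1 in 8 of the 14 in which it was tested. Without any 1 array of the 3 genotypes, some of the 14 probe sets left the class. Without se-1 replicate 1 others entered it, and the class became larger.

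The other 58 calls, 40 higher and 18 lower, were not called against se-1, and 25 of them have a gene. In se-1, 41 of the 58 had an unadjusted p under 0.05 against the same Col-0 arrays, and the median size of the log2 change there was 0.61, against 1.13 in the transgene line, the comparison that selected them. They are therefore not shown to be absent from se-1. The largest rise was that of AT3G62960, a glutaredoxin gene, at 94.5 and 145 in se-1 p35S::MIR156, 60.1 and 84.4 in se-1 and 16.6 and 28.5 in Col-0 with 1 Col-0 array within background (1.81, adjusted p = 0.00675). The arrays of se-1 lay between those of the other groups, and its own change was 1.20 (adjusted p = 0.065). Of flavonoid genes, CHIL, a chalcone isomerase-like gene, read 332 and 423 in se-1 p35S::MIR156, 289.6 and 185 in se-1 and 113 and 170.5 in Col-0 (1.33, adjusted p = 0.0116). AT5MAT, which attaches malonyl groups to anthocyanins, read 268 and 336 in se-1 p35S::MIR156, 198 and 149 in se-1 and 107 and 123 in Col-0 (1.27, adjusted p = 0.00806). UGT78D2, a flavonoid 3-O-glucosyltransferase, read 527 and 653 in se-1 p35S::MIR156, 352 and 284 in se-1 and 282 and 327 in Col-0 (0.92, adjusted p = 0.0299). For CHIL and AT5MAT se-1 lay between the transgene line and Col-0, and for UGT78D2 it overlapped Col-0.

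Other rises in this class were in genes of enzymes. The vacuolar invertase gene AT1G62660 rose by 1.20, the proline dehydrogenase gene AT5G38710 by 1.16, the methionine sulfoxide reductase gene MSRB9 by 0.82 and the acid phosphatase-family gene AT5G44020 by 0.83. COR47, a dehydrin of the cold and drought response, read 1649 and 1914 in se-1 p35S::MIR156, 1325 and 1327 in se-1 and 1027 and 1049 in Col-0 (0.77, adjusted p = 0.0287). The lipid transfer-type genes AT4G33550 and AT2G45180 rose by 1.08 and 0.97, and the aspartyl protease-family gene AT5G19100 by 1.08. The remaining rises were those of AT1G68440 (1.23), the oleosin-type gene AT5G56100 (1.16), AT1G03620 (1.11) and the protein phosphatase gene AT1G03590 (0.87).

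The 9 lowered genes of this class were TBL36, AT1G60590, AT1G14890, DI21, LPA19, AT5G61310, AT5G59305, AT1G29270 and AT4G22212. TBL36, of the family that acetylates wall polysaccharides, read 702 and 515 in se-1 p35S::MIR156, 768 and 748 in se-1 and 1301 and 1458 in Col-0 (-1.17, adjusted p = 0.00944). The pectin lyase-like gene AT1G60590 had a change of -1.32 and the pectin methylesterase inhibitor-like gene AT1G14890 of -1.14. DI21, a drought-induced gene, read 936 and 946 in se-1 p35S::MIR156, 1243 and 1323 in se-1 and 1859.9 and 1753 in Col-0 (-0.93, adjusted p = 0.00806). LPA19, an assembly factor of photosystem II, changed by -0.97, and AT5G61310, of the cytochrome c oxidase subunit Vc family, by -0.88. The other falls were those of AT5G59305 (-1.40, with 1 array of the transgene line within background), AT1G29270 (-1.07) and the defensin-like gene AT4G22212 (-1.04). The calls of all 25 genes ended without at least 1 array, with adjusted p between 0.052 and 0.522. The number of calls made with the transgene alone, 72 in the main fit, was counted anew without each array. It fell without an array of the transgene line or of Col-0 and rose without an array of se-1.

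**Figure D4:**
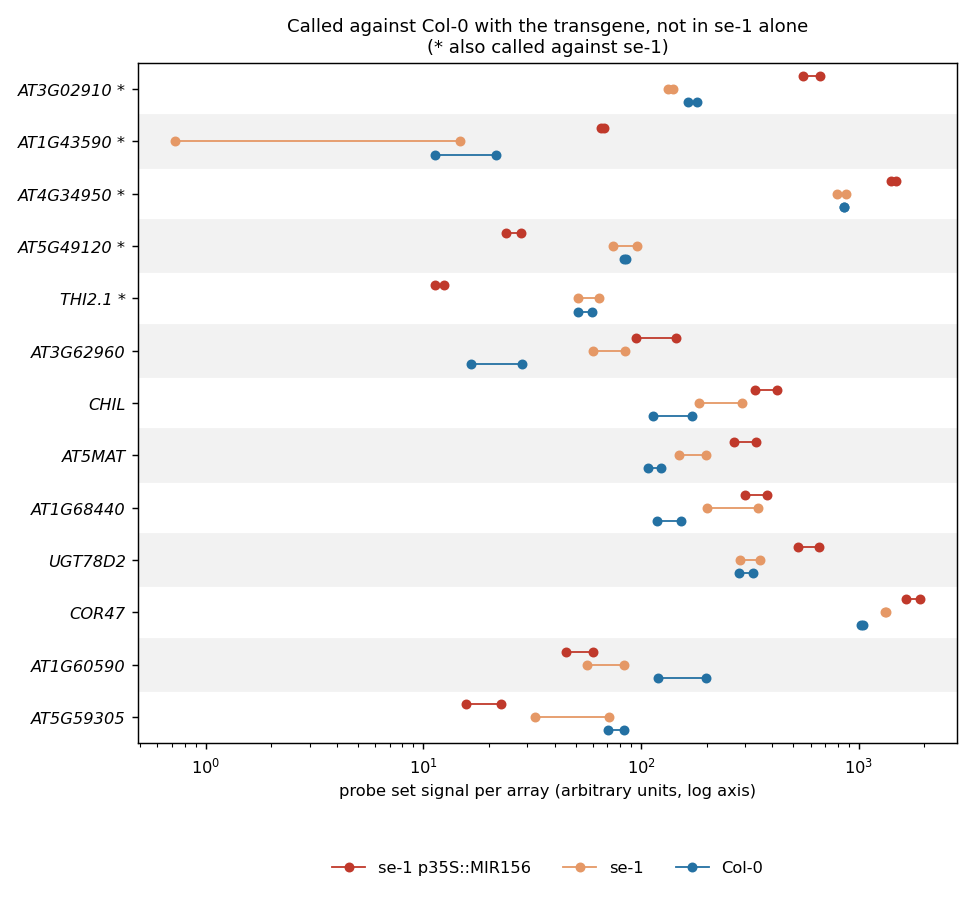
Signal on each array (horizontal axis, log scale, arbitrary units) for genes called against Col-0 with the transgene and not in se-1. An asterisk marks the 5 genes that also differed from se-1; below them are 8 of the 25 genes that did not by that test. Points are arrays and lines join the 2 arrays of a genotype; the arrays of se-1 p35S::MIR156 and of Col-0 do not overlap in any gene shown.

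Members of pathways and cell type markers were also read by list, as far as they were tested. Over all tested probe sets, 9.4% had an unadjusted p under 0.05 against Col-0 and the median was -0.02. Those values stand beside the transgene line's counts and median for every list. SMZ, SNZ, PHV and PYK10 are each on more than 1 list and are counted in each. Of 354 genes on 23 lists, the annotation pairs 70 with a probe set of their own, and 62 were tested. Of these, 5 were called in se-1 p35S::MIR156 against Col-0: AT5MAT, UGT78D2 and COR47 higher, GH9B13 and THI2.1 lower. That is 8.06%, against 0.842% of all tested probe sets, on lists that were drawn up with earlier results of these data known, and nothing is read from the share. With each array of the transgene line and of Col-0 left out in turn, 1 was called each time, GH9B13. In the flavonoid and anthocyanin list 2 of 6 tested genes rose, 5 had an unadjusted p under 0.05 (9.4% of all tested probe sets had one), and the median log2 difference was 0.85, against -0.02 over all tested probe sets. DFR, the dihydroflavonol reductase at the entry to anthocyanins, read 1223 and 1709.8 in se-1 p35S::MIR156, 636 and 417 in se-1 and 771 and 911 in Col-0, a difference of 0.78 from Col-0 (adjusted p = 0.202) and 1.46 from se-1 (adjusted p = 0.011). AT4G14090, an anthocyanin glucosyltransferase, differed by 0.94 from Col-0 (adjusted p = 0.109) and UGT78D1, a flavonol rhamnosyltransferase, by 0.68 (adjusted p = 0.144). UF3GT, which adds a xylose to anthocyanins, read 238 and 199 in se-1 p35S::MIR156, 72.5 and 61.9 in se-1 and 216 and 295 in Col-0. It overlapped Col-0 (-0.20, adjusted p = 0.892) and differed from se-1 by 1.49 (adjusted p = 0.00824). Against se-1, 3 of the 6 rose, namely DFR, AT4G14090 and UF3GT.

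ER bodies are compartments of the endoplasmic reticulum that hold the beta-glucosidase PYK10. None of the 7 tested genes of that list was called against Col-0 in the transgene line, 4 had an unadjusted p under 0.05, and the median was 0.65. JAL34, a jacalin-type lectin found with PYK10, read 426 and 456 in se-1 p35S::MIR156, 139 and 178 in se-1 and 263 and 221 in Col-0, with a difference of 0.83 from Col-0 (adjusted p = 0.0619) and 1.40 from se-1 (adjusted p = 0.00302). The lectin genes JAL33 and JAL23 differed from Col-0 by 0.75 and 1.01 (adjusted p = 0.0726 and 0.0779). NAI1, the transcription factor needed for ER bodies, differed by 0.65 (adjusted p = 0.255). In se-1, JAL33 differed from Col-0 by -0.43, while JAL23 was called higher (1.08, adjusted p = 0.0475) and NAI1 differed by 0.72 (adjusted p = 0.141). JAL23 and NAI1 each differed by -0.07 between the se-1 lines, where the other 5 genes had positive differences. JAL33 and JAL34 were called with a pseudocount of 64 and without the ago1-27 arrays. PYK10 read 2337 and 1545 in se-1 p35S::MIR156, 639 and 933 in se-1 and 1648 and 1678 in Col-0. Its call in se-1 against Col-0 and its call between the se-1 lines each ended in 8 of the 15 alternatives. Against se-1, PYK10, JAL22, JAL33 and JAL34 rose, while against Col-0 the transgene line overlapped wild type for PYK10. PYK10 is also a root marker: the root list summed to 2405 and 1588 in se-1 p35S::MIR156, 679.7 and 995 in se-1 and 1719 and 1768 in Col-0 over its 4 probe sets, nearly all of it PYK10. Of its other members, EXPA7, a root hair gene, was within background on all 6 arrays. AT1G62510 differed by -0.41 from Col-0 and 0.16 from se-1, and AT1G49570 by -0.31 and 0.17, where PYK10 differed by 0.19 and 1.28. Neither was called, and the part of root tissue in these values was not tested.

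Of the flowering and phase change list, none of 7 tested genes was called against Col-0, 2 had an unadjusted p under 0.05, and the median was -0.14. AGL42, a MADS-box promoter of flowering related to SOC1, read 36.1 and 27.6 in se-1 p35S::MIR156, 134 and 138 in se-1 and 67.2 and 60.1 in Col-0. The 3 genotypes did not overlap, and the difference was -0.74 from Col-0 (adjusted p = 0.256) and -1.67 from se-1 (adjusted p = 0.0043). FD, which acts with the florigen FT, differed from Col-0 by -0.50 (adjusted p = 0.546). SMZ, a floral repressor and a target of miR172, read 70.0 and 74.0 in se-1 p35S::MIR156, 49.3 and 55.2 in se-1 and 43.8 and 35.5 in Col-0 (0.66, adjusted p = 0.341).

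Since the transgene line keeps the se-1 lesion, targets of other microRNAs were read as well. None of 9 tested was called against Col-0, 4 had an unadjusted p under 0.05, 8 had a positive difference and the median was 0.43. In se-1 against Col-0 none of the 9 was called, 2 had an unadjusted p under 0.05, 6 had a positive difference and the median was 0.23. APS3 and APS4, ATP sulfurylase genes targeted by miR395, differed by 0.69 and 0.60 (adjusted p = 0.36 and 0.412), and LCR, an F-box gene targeted by miR394, by 0.43 (adjusted p = 0.425). In se-1, APS3 and APS4 differed from Col-0 by 0.23 and 0.22 and overlapped it, and LCR differed by 0.60. The values of APS3 and APS4 are therefore not shown to be changes of se-1. LCR read 416 and 415 in se-1 p35S::MIR156, 436 and 502 in se-1 and 286 and 323 in Col-0, so both se-1 lines lay above Col-0. PHV, a target of miR165 and miR166 that sets the upper side of the leaf, differed by 0.36 (adjusted p = 0.699). Its difference from Col-0 in se-1 was 0.57. None of 6 tested genes of the list of ta-siRNA and pentatricopeptide repeat targets was called, and 2 had an unadjusted p under 0.05. Their median was 0.58, with AT1G63150 at 67.7 and 68.4 in se-1 p35S::MIR156, 63.9 and 71.1 in se-1 and 35.6 and 38.5 in Col-0 (0.66, adjusted p = 0.293).

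In the list of abscisic acid and cold response, 1 of 5 tested genes rose against Col-0, COR47, and the median was -0.17. LTI30, a dehydrin like COR47, read 136 and 103 in se-1 p35S::MIR156, 155 and 157 in se-1 and 263 and 195 in Col-0 (-0.85, adjusted p = 0.111). Of the small RNA machinery none of 5 tested genes was called and none had an unadjusted p under 0.05. AGO7, the partner of miR390, differed by -0.52 (95% interval -1.11 to 0.08) and DDL by -0.03 (95% interval -0.44 to 0.37). None of the 4 photosynthesis genes, the 3 leaf polarity genes or the 2 trichome genes tested was called, and none had an unadjusted p under 0.05. GH9B13 was the called gene among 2 tested on the cell wall list, and THI2.1 the 1 gene tested on the defence list. No gene was called among 3 tested on the root list, 2 each on the auxin and cytokinin lists, and 1 each on the clock list and the list of SPL genes not targeted by miR156, and an unadjusted p under 0.05 was found for 1 auxin and 1 clock gene. The signs of the medians of the flavonoid, ER body, other microRNA target and ta-siRNA lists were the same with quantile normalization and with pseudocounts of 1 and 64. Their sizes were not: the ta-siRNA median was 0.58 in the main setting, 0.83 with a pseudocount of 1 and 0.29 with 64. Of that list, AT1G12620, AT1G12775 and AT5G16640 each had 1 Col-0 array within background.

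**Figure D5:**
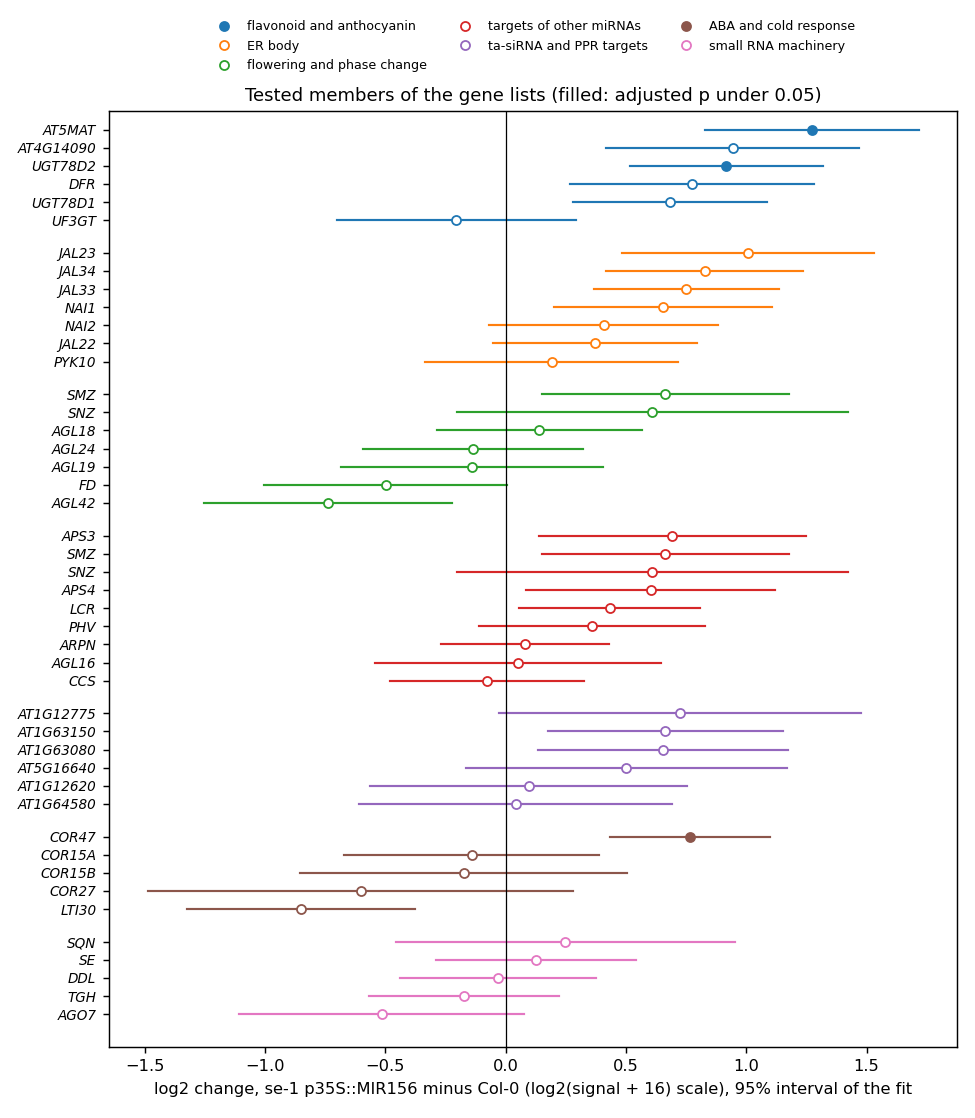
Log2 difference of se-1 p35S::MIR156 minus Col-0 (horizontal axis) for each tested gene of 7 lists, with the 95% interval of the fit. Filled points have an adjusted p under 0.05: AT5MAT, UGT78D2 and COR47. The 7 ER body genes and the 6 ta-siRNA list genes all have positive values and open points.

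Probe sets with no listed gene included the largest changes, and are given by value only. The largest falls were a pair called in both se-1 lines. The first read 2.29 and 21.5 in se-1 p35S::MIR156, 17.1 and 12.4 in se-1 and 508 and 557 in Col-0, with 1 array of the transgene line within background (-4.39, adjusted p = 7.07e-07). The second read 4.80 and 6.81 in se-1 p35S::MIR156, 1.91 and 1.64 in se-1 and 393 and 288 in Col-0, at least 20.9-fold under Col-0 with the transgene (adjusted p = 9.73e-08). Both calls were made in every alternative. Of the largest rises, the first read 227 and 353 in se-1 p35S::MIR156, 133 and 98.7 in se-1 and 20.4 and 38.3 in Col-0 (2.75, adjusted p = 0.000399). The second was not raised in se-1: it read 1192 and 1101 in se-1 p35S::MIR156, 260.2 and 299 in se-1 and 211 and 266 in Col-0, a rise of 2.20 over Col-0 and 1.98 over se-1 (adjusted p = 6.65e-05 and 0.000367). Of the 6 named probe sets that were called with the transgene, not called in se-1 and different between the lines, its call was the 1 made in every alternative.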

How the data were processed

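Transcript levels were measured on Affymetrix ATH1 arrays, 1 array a sample and 2 a genotype. Per the labels' protocols, a Qiagen kit was used to extract total RNA and an Ambion kit to amplify and biotin-label it. The authors deposited 1 linear intensity per probe set and array; GCOS is named in the submitters' processing notes without a version, and the signal algorithm is not given in the sources used here. The 2% trimmed mean of the deposited intensities was 200.02 on every array, so the authors had scaled them. Probe sets were named through the platform annotation and symbols through the gene table. Of 22746 probe sets other than the 64 controls, 13513 were listed with 1 gene, 503 with several and 8730 not at all; the last are given by value only.

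Signals were taken as log2(signal + 16), which understates the fold of dim probe sets. The 30% with the lowest mean over all 8 arrays were left out, and 15922 were tested with limma 3.58.1 in R 4.3.3. The fit had 1 mean per genotype on all 8 arrays (4 residual and 11.3 prior degrees of freedom), eBayes with a trend, and Benjamini-Hochberg adjustment within each comparison. The code was tested on simulated data. A signal within the range of the 27 bacterial control probe sets, of which the highest on an array of these 3 genotypes was 14.2 to 30.2, counts as within background. Where both arrays of a genotype lay there, the fold is a bound: the geometric mean of the other genotype over that of the highest bacterial signal of each array, or the probe set's own. The files give no counts, and the number of arrays limits the precision.

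Nothing in the labels states that replicate samples were grown or collected separately, so the p-values reflect the spread between these arrays alone, which may be technical. The groups, gene lists and members were chosen with earlier results of these data known. Named are, among called probe sets with 1 gene, the 12 largest rises and falls against Col-0, the 8 largest per direction of each class, called list members and up to 6 others per list, and SE. The remaining genes of the classes kept and called with the transgene alone, the run of chitinase genes and the probe sets with opposite calls were added after their values were seen. Alternatives were pseudocounts of 1 and 64, no filter, the lowest 50% left out, quantile normalization, eBayes without a trend or robust, no ago1-27 arrays, a replicate block and each array left out in turn.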

Additional observations from a re-analysis of the deposited data

Results flagged for a closer look

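In 2 probe sets the difference from Col-0 was not the same in the se-1 lines with and without the transgene, with calls in opposite directions. For AT3G28500 the transgene line minus se-1 was -1.91 (adjusted p = 0.000367), with 119.6 and 88.5 in se-1 p35S::MIR156, 418.5 and 445 in se-1 and 239 and 189.7 in Col-0. For a probe set with no listed gene it was -2.03 (adjusted p = 0.000367), with 56.1 and 58.2 in se-1 p35S::MIR156, 257 and 311 in se-1 and 162 and 135 in Col-0. Both differences between the se-1 lines were called in each of the 15 alternatives. The calls of se-1 p35S::MIR156 against Col-0 ended without each array of that line and each array of Col-0, with adjusted p between 0.0522 and 0.432. The calls of se-1 against Col-0 ended in 6 of 15 alternatives for AT3G28500 (adjusted p between 0.0652 and 0.198) and in 11 of 15 for the probe set with no listed gene (adjusted p between 0.0527 and 0.304), including pseudocount 1, quantile normalization, the replicate block and each array left out.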

How the results depend on the processing

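With no filter on dim probe sets, 28 probe sets were called in se-1 p35S::MIR156 against Col-0, 68 in se-1 against Col-0 and 15 between the 2 se-1 lines. There were then 18 kept changes, 50 se-1 changes not called with the transgene (3 of them different between the lines), 10 changes called with the transgene and not in se-1 (3 different from se-1) and 1 called list member. With eBayes without a trend, the transgene line had 75 calls against Col-0 and 25 against se-1, with 9 se-1 changes not called and different, 34 changes called with the transgene and not in se-1, 8 of them different from se-1, and 3 called list members. Changes called with the transgene alone that differed from se-1 numbered 9 with the lowest 50% left out and 22 without the ago1-27 arrays. More probe sets were tested with no filter, 22746, and fewer arrays were used without ago1-27. The prior degrees of freedom also changed, from 11.3 in the main fit to 5.77 with no filter and 6.96 without a trend. The cause of these shifts was not tested.

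Leaving out each array in turn gave 14 to 148 calls for se-1 p35S::MIR156 against Col-0, 32 to 141 for se-1 against Col-0 and 10 to 45 between the se-1 lines. The kept changes numbered 6 to 48 and the se-1 changes not called 26 to 123, of which 6 to 11 differed between the lines. The changes called with the transgene and not in se-1 numbered 4 to 100, of which 1 to 19 differed from se-1, and 1 to 5 list members were called. Where that left 1 array of a genotype, the lone array was taken to vary like the others. Of 66 named calls of the transgene line against Col-0, 9 were made in every alternative in which their probe set was tested. They were those of AT1G13880, AT1G19960, GH9B13, AT1G10640 and 5 probe sets with no listed gene. Of 19 named calls between the se-1 lines 5 were made in every such alternative, and of 46 of se-1 against Col-0 18 were. No called value changed sign.

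The replicate numbers are shared between genotypes by label alone. Deviations of same-numbered arrays correlated with r of -0.01 between the transgene line and Col-0, -0.13 between the transgene line and se-1 and -0.21 between se-1 and Col-0, so the numbers were not taken to pair the samples. With the replicate block the calls numbered 143, 187 and 59 for the transgene line against Col-0, se-1 against Col-0 and the transgene line against se-1, with 64 kept, 122 not called and 78 called with the transgene alone.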
